A study of Mus musculus with 9 samples.

Results

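The response of J774A.1 cells to IL-4 plus IL-13 was measured as transcript levels in 6 of the 9 libraries of the study. The control group held 3 libraries from cells under normal culture, and the M2 group held 3 from cells given both cytokines at 10 ng/mL. J774A.1 is an established line of mouse macrophage-like cells, so all libraries come from 1 line. Whether 1 group's libraries stem from different cultures is not said in the labels, and the p-values then measure only the spread between these libraries, which may be technical. How long the cells were treated is not given in the sources used. The remaining 3 libraries came from cells that received Q11 and were not part of this comparison. Of the 26157 genes in the table, the 13601 that reached 1 TPM in 3 or more of the 6 libraries were compared. TPM is a level corrected for gene length and library size. Every difference below is M2 minus control on the log2(TPM + 1) scale, which understates the changes of low genes, while folds are ratios of mean TPM.

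IL-4 and IL-13 share receptor chains that signal through JAK kinases to the transcription factor STAT6. In macrophages they bring about the state called alternative activation, or M2, best known for lectin receptors such as Mrc1 and Mgl2, arginine use and chemokines. The opposite M1 state of microbial stimulation is known for cytokines such as Tnf and for reactive oxygen and nitrogen. The description below is mainly of genes outside those marker lists: enzymes, kinases, membrane traffic, ribosome assembly, surface receptors and feedback inhibitors.

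Between 15815847 and 17095787 reads per library could be recovered from the deposited values. The first principal component (27.3% of the variance) separated the 3 control from the 3 M2 libraries, and the second (20.4%) set M2 replicate 3 (-19.5) and control replicate 2 (-18.9) apart from M2 replicates 1 and 2 (16.9 and 19.0). The 23 markers of macrophage identity summed to between 19740 and 20417 TPM in control and between 15422 and 16253 TPM in M2. Such genes were abundant in every library. Of the 22 tested, 10 fell past the threshold of the limma test (45.5%, beside 3.93% of all genes) and 2 rose (median -0.16), with 8 to 9 falls when 1 library was left out. Lyz2, the lysozyme gene, was among the falls, at 6698, 7139.9 and 6739.7 TPM in control and 3343, 3678 and 3766 TPM in M2. Of 58 markers of other cell types, 32 were in the table, 5 could be tested (Cdh5, Vwf, Ighm, S100a8 and Zbtb46) and 0 were called. Their summed level was 55.8 to 63.6 TPM in control and 45.4 to 57.4 TPM in M2, and 6 of them were listed at 0 in every control library, as were 6 in every M2 library.

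By limma with Benjamini-Hochberg adjustment over the 13601 genes, 575 genes rose (4.23%) and 535 fell (3.93%) at an adjusted p under 0.05, and 12491 passed in neither direction. The shares of 4.23% and 3.93% are the background for every group count below. Rises and falls were close in number and mostly small. The median size of a called difference was 0.29, and 467 of the rises and 398 of the falls were under 0.5. A difference of at least 1 was reached by 41 rises and 25 falls, and 22 of these 66 genes lay under 5 TPM even in their higher group. Of the 1110 called genes, 27 were on the lists of classical M2 or M1 markers and 1083 (97.6%) were not. The M2 libraries all lay above the control libraries in 15% of genes and all below them in 14.4%, and each of the 1110 called genes was among these.

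In the make-up of the whole transcript pool the changes were modest. The share of all TPM held by the genes that rose was 8.32% to 8.41% in control and 10.1% to 10.3% in M2. Those that fell took 10.90% to 10.96% in control and 8.37% to 8.72% in M2. Part of the second shift lay in Lyz2, which encodes lysozyme, and Spp1, which encodes the secreted protein osteopontin: together they took 1.34% to 1.42% in control and 0.730% to 0.794% in M2. Spp1 was at 6741, 7071 and 6719 TPM in control and 3956, 4265 and 4116 TPM in M2.

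The number of calls was lower in each fit that left out 1 library and so held fewer samples. It was 465 without control replicate 1, 569 without control replicate 2 and 515 without control replicate 3. Without M2 replicates 1, 2 and 3 it was 519, 810 and 695. Across these 6 fits, 384 of the 1110 genes were called each time (178 rises and 206 falls), and 1109 kept their direction under every alternative, the exception being mt-Co1, at 0 after quantile normalization. The called genes named below kept their call in each of these 6 fits unless stated.

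**Figure D1:**
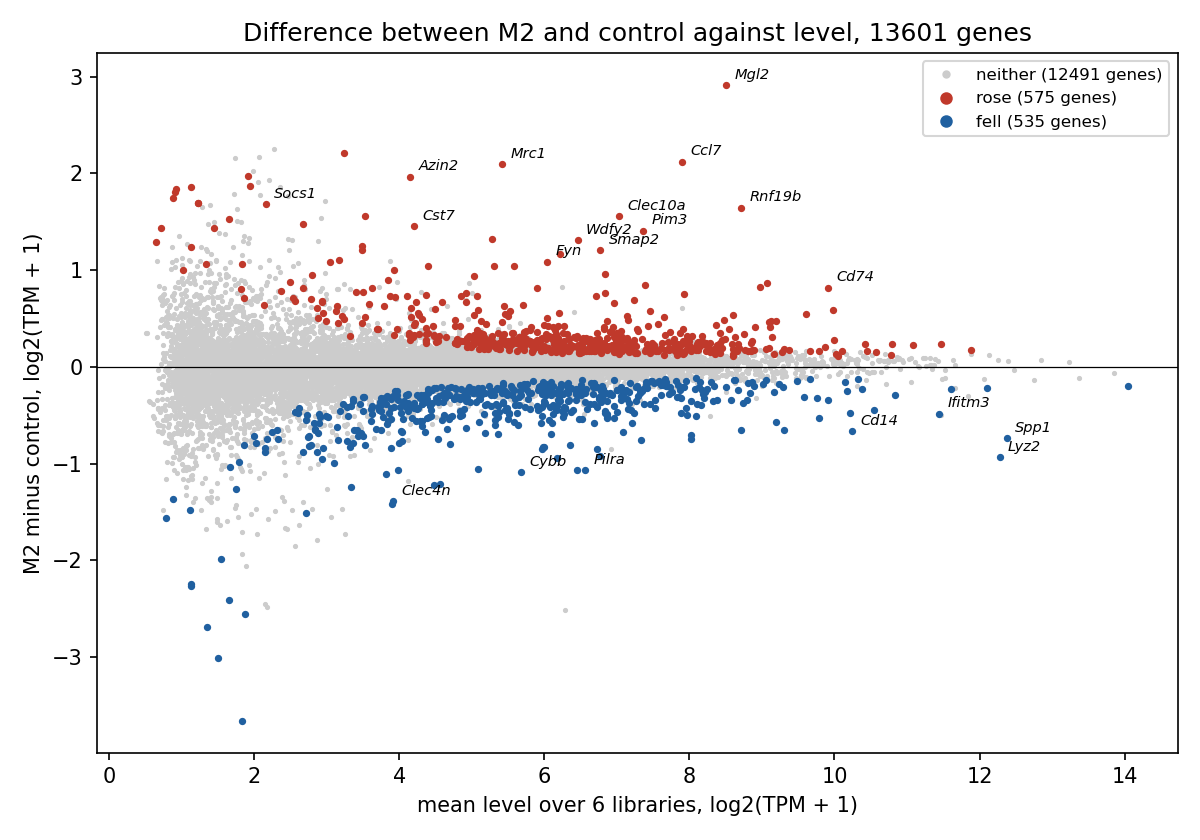
Difference between the means of the 3 M2 and the 3 control libraries (y axis, log2(TPM + 1)) against the mean level over the 6 libraries (x axis, log2(TPM + 1)), with 1 point per gene. Red points are the 575 genes that rose, blue points the 535 that fell, and grey points are the 12491 in neither class. Most coloured points lie within 0.5 of 0, the largest falls sit at the low end of the level axis, and the abundant genes Lyz2 and Spp1 lie well below it.

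The largest called falls on this scale were in short RNAs, for which a few reads make several TPM. Mir5622, a microRNA gene with 60 exonic bases, was at 6.87, 13.2 and 17.1 TPM in control and was listed at 0 in all 3 M2 libraries. The libraries were made from poly-A RNA, and such genes are not described further. Gm8113, a predicted protein-coding gene named after its values were seen, had the second largest rise, from 3.64, 3.34 and 3.16 TPM to 17.0, 20.4 and 20.8 TPM (2.22, limma adjusted p = 0.000129).

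Among well measured genes outside the classical marker lists, large rises lay in single genes of ubiquitin transfer, polyamine metabolism, kinase signalling and membrane traffic. Of 152 tested ubiquitin ligases and conjugating enzymes, 8 rose and 8 fell (5.26% each, beside 4.23% and 3.93% of all genes), with a median of -0.02. Of 57 genes of one-carbon, methionine, polyamine and arginine metabolism, 7 rose (12.3%) and 4 fell (7.02%), with a median of 0.06. Rnf19b, which encodes a ubiquitin ligase (ENSMUSG00000028793, GRCm38 chromosome 4, 129058271 to 129085886), was at 236, 233 and 241 TPM in the control libraries and at 742, 744 and 741 TPM in the M2 libraries. The libraries within each group were nearly alike beside the gap between the groups. Rnf19b rose 3.14-fold, a log2 difference of 1.65 (95% interval 1.59 to 1.71, limma adjusted p = 8.04e-07). Azin2, which encodes an antizyme inhibitor that protects ornithine decarboxylase, the first enzyme of polyamine synthesis (ENSMUSG00000028789, chromosome 4, 128930233 to 128962442), was at 7.38, 6.88 and 9.97 TPM in control and 33.9, 31.2 and 37.4 TPM in M2. It rose 4.23-fold from a low level (1.97, 1.65 to 2.28, adjusted p = 0.000527).

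Kinases and small-GTPase regulators were also among the clearest rises. Pim3, a serine and threonine kinase of cell survival (chromosome 15, 88862186 to 88865726), was at 97.3, 96.9 and 106 TPM in control and 279, 259 and 263 TPM in M2 (1.41, limma adjusted p = 2.78e-05). Fyn, a tyrosine kinase of the Src family (chromosome 10, 39368855 to 39565381), was at 45.4, 39.9 and 46.9 TPM in control and 94.3, 93.0 and 96.5 TPM in M2 (1.09, adjusted p = 0.000261). Neither gene's groups came near each other. Jak2, a kinase of cytokine receptors, rose from 22.1 ± 0.680 to 38.3 ± 0.958 TPM (SD, n = 3 in each group), and Socs1, an inhibitor of JAK kinases, from 1.53 ± 0.504 to 7.10 ± 1.32 TPM. A kinase of the pathway and its inhibitor were thus both higher. Of 18 tested genes of IL-4 and IL-13 receptor signalling, however, 2 rose and 2 fell (11.1% each), with a median of -0.01. Over all genes tested 4.23% rose and 3.93% fell. The falls were the receptor gene Il13ra1, from 28.9 to 16.9 TPM (-0.74, limma adjusted p = 0.00239), and Ptpn6 (-0.13). The call of Ptpn6 was lost in all 6 fits without 1 library. Smap2, a GTPase-activating protein for Arf GTPases, was at 67.1, 73.5 and 72.3 TPM in control and 173, 154 and 169 TPM in M2 (1.21, adjusted p = 0.000129). Arl4c, a small GTPase, rose from 81.1 ± 5.07 to 159 ± 3.58 TPM, and Rgl1, an exchange factor for the Ral GTPases, from 6.43 ± 0.897 to 16.1 ± 0.768 TPM.

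Further single genes rose. Wdfy2, which encodes an early endosomal protein with a lipid-binding FYVE domain, was at 57.2, 52.1 and 55.1 TPM in control and 142, 129 and 141 TPM in M2 (1.31, 1.19 to 1.43, limma adjusted p = 6.29e-05). Sdc4, which encodes the heparan sulfate proteoglycan syndecan-4, was at 377, 361 and 394 TPM in control and 698, 684 and 631 TPM in M2 (0.83, adjusted p = 0.000315). Both genes' groups were well separated. Man1a, a mannosidase that trims N-glycans in the Golgi, rose from 13.7 ± 1.04 to 29.3 ± 0.717 TPM. Cst7, an inhibitor of lysosomal cysteine proteases, was more variable, at 11.9, 11.2 and 7.68 TPM in control and 25.01, 30.5 and 33.3 TPM in M2 (1.45, adjusted p = 0.00378). Gpr183, a receptor for oxysterols, rose from 32.8 ± 5.62 to 68.0 ± 3.16 TPM, and Igf1, a secreted growth factor, from 40.8 ± 1.59 to 64.2 ± 2.82 TPM. Cd74, the invariant chain of MHC class II, was at 709.8, 686 and 769.9 TPM in control and 1266, 1181 and 1382 TPM in M2 (0.82, adjusted p = 0.00101). Of the 39 tested genes of MHC and antigen presentation, however, 3 rose (7.69%) and 7 fell (17.9%), with a median of -0.10.

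Among protein-coding genes, large falls were in an oxidase subunit, paired and lectin receptors, a metabolite receptor, a potassium channel and a leukotriene enzyme. Cybb, the catalytic subunit of the phagocyte NADPH oxidase (ENSMUSG00000015340, chromosome X, 9435252 to 9487771), was at 77.3, 70.6 and 73.3 TPM in control and 32.6, 35.2 and 34.6 TPM in M2. The highest M2 library was below the lowest control library by a wide margin (-1.09, 95% interval -1.21 to -0.97, limma adjusted p = 0.000129). Hcar2, the receptor for niacin and the ketone body beta-hydroxybutyrate (ENSMUSG00000045502, chromosome 5, 123863570 to 123865499), was at 30.7, 35.2 and 33.8 TPM in control and 14.3, 13.3 and 13.3 TPM in M2 (-1.22, -1.38 to -1.06, adjusted p = 0.000234). Kcnj2, an inward-rectifier potassium channel (chromosome 11, 111066164 to 111076821), was at 45.1, 49.8 and 48.9 TPM in control and 20.4, 24.4 and 22.8 TPM in M2 (-1.06, adjusted p = 0.000571). In none of these genes did the groups overlap. Alox5, which makes the first precursor of leukotrienes, was at 17.6, 20.508 and 20.8 TPM in control and 7.51, 8.37 and 9.93 TPM in M2 (-1.11, adjusted p = 0.00229).

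The eicosanoid genes did not all move one way. Besides Alox5, Ptgs2, the inducible cyclooxygenase, fell by 0.72, while Ptgs1, the constitutive cyclooxygenase, was at 143, 139 and 145 TPM in control and rose to 208, 201 and 229 TPM in M2 (0.57, limma adjusted p = 0.00132). Ptger4, a receptor for prostaglandin E2, fell from 9.28 ± 0.397 to 4.77 ± 0.576 TPM (SD, n = 3). Thus 1 cyclooxygenase was higher and the other lower in the same libraries.

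**Figure D2:**
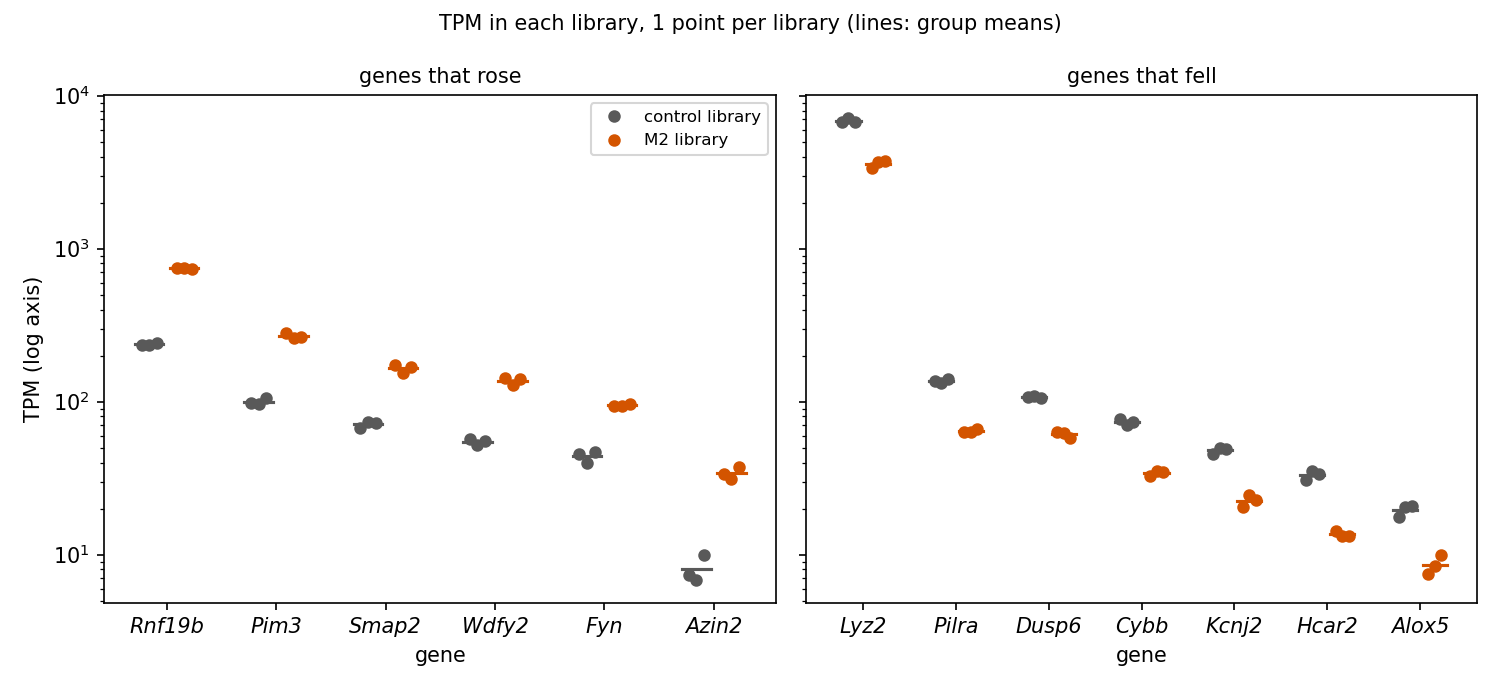
TPM on a log axis in each of the 3 control and 3 M2 libraries for single genes that rose and fell, with 1 point per library and a line at each group's mean. The 3 M2 libraries lie above the 3 control libraries for the rising genes such as Rnf19b and below them for the falling genes such as Cybb, and the points within a group lie close together.

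Promoter sequences of RefSeq (GRCm38.p6) were read for 9092 of the tested genes, as the 250 bases before the first listed start, to describe which letters the changed genes carry. The palindrome TTCNNNNGAA, the form bound by STAT6, stood in 4.75% of all these windows, in 4.78% of the windows of genes that rose and in 2.99% of those that fell. The interferon-response letters GAAANNGAAA stood in 2.73% of all windows, 2.17% of those that rose and 5.24% of those that fell, and the AP-1 letters TGANTCA in 4.29%, 4.35% and 7.98%. Both strands were searched. Among falls of at least 0.5, 8 of 89 windows (8.99%) held GAAANNGAAA and 11 of 89 (12.4%) held TGANTCA. Among rises of at least 0.5 the counts were 5 of 77 (6.49%) and 8 of 77 (10.4%). These shares are descriptions of short windows, and a match is not a measured binding site. Among interferon-response genes on the list described further on, GAAANNGAAA stood in 5 of 14 windows of members that fell (35.7%) and in 19 of 51 of members not called (37.3%).

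The windows of called genes outside the classical lists with the largest changes, at 5 TPM or more in the higher group, that hold these letters are given 5′ to 3′ on the gene's strand, with the matched letters in capitals. Iqcf1 (chr9:106499717-106499966, plus strand) and Tlr8 (chrX:167264330-167264579, minus strand) rose and hold TTCNNNNGAA, in both 77 bases before the start. Cybb (chrX:9469325-9469574, minus strand) fell and holds 3 copies of GAAANNGAAA, and Pilra (chr5:137836279-137836528, minus strand) fell and holds 1. Clec12a (chr6:129349994-129350243, plus strand) fell and holds TGANTCA. Cybb also holds 1 copy of TGANTCA, 139 bases before the start, and the window of Iqcf1, which rose, holds TGANTCA as well. In the windows of Cybb and Iqcf1 the TGANTCA matches are left in lower case.
Iqcf1: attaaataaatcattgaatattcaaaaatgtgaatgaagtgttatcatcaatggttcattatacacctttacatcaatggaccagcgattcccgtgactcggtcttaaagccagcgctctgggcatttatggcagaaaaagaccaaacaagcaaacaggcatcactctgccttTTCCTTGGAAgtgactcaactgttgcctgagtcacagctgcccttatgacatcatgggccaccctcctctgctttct
Tlr8: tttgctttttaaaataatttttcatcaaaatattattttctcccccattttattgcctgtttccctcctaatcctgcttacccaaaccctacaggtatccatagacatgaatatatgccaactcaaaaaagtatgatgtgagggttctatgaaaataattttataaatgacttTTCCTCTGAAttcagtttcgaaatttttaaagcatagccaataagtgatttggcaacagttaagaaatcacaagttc
Cybb: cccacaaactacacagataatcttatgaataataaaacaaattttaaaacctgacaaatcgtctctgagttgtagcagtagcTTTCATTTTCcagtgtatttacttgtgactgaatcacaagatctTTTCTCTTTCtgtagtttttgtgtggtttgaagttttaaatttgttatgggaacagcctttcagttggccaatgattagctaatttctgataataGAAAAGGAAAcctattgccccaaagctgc
Pilra: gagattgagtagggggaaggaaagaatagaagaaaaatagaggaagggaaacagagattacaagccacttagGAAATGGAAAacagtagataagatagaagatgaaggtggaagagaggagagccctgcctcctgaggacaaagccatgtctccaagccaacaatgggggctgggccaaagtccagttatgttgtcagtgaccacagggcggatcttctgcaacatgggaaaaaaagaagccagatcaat
Clec12a: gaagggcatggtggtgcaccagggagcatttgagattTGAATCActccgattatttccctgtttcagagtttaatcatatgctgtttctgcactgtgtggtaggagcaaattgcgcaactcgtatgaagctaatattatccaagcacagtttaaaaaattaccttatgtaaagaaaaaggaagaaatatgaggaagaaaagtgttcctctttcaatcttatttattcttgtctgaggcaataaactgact

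Tlr8, an endosomal sensor of RNA, was at 43.7, 43.2 and 45.3 TPM in control and 77.4, 81.0 and 75.95 TPM in M2 and rose 1.77-fold (0.81, limma adjusted p = 0.000165). Its neighbour in function Tlr7, also a sensor of single-stranded RNA, fell by 0.35. Clec12a, an inhibitory lectin-like receptor of myeloid cells, fell from 7.62 ± 0.438 to 3.69 ± 0.290 TPM (SD, n = 3). Iqcf1 was near the floor of the control libraries (0.838, 2.41 and 0.277 TPM) and at 7.28, 6.08 and 5.67 TPM in M2. Its call (adjusted p = 0.0220) was lost in 4 of the 6 fits that left out 1 library, with adjusted p up to 0.0815.

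Genes that assemble ribosomes rose together. Of 110 tested genes of ribosome biogenesis, 41 rose and 0 fell, with a median difference of 0.17, where 4.23% of all genes rose and the median of all genes was -0.0031. All 3 M2 libraries lay above all 3 control libraries in 76 of the 110 and below them in 0. Over all genes tested, 15% lay above and 14.4% below in this way. The rises were small and regular. Nolc1, a nucleolar chaperone of small nucleolar RNA particles, was at 194, 186 and 181 TPM in control and 248, 239.9 and 233 TPM in M2 (0.36, limma adjusted p = 0.00271). Wdr46, a scaffold of the small-subunit processome, was at 111, 115 and 111 TPM in control and 149.5, 137 and 143 TPM in M2 (0.35, adjusted p = 0.00387). Nop2, a methyltransferase of large-subunit ribosomal RNA, was at 235, 245 and 225 TPM in control and 301, 285 and 292 TPM in M2 (0.31, adjusted p = 0.0055). In each the groups did not overlap. Heatr1 (0.30), a processome component, and Bop1 (0.26), which matures the large subunit and overlaps another gene in the annotation, also rose. Set against the control mean, the median member was at 0.170, 0.174 and 0.153 in M2 replicates 1, 2 and 3 and at 0.012, 0.029 and -0.028 in the control libraries. The count of called members was smaller in every fit with 5 libraries, between 13 (without M2 replicate 1) and 24, and 59 by limma-voom on recovered reads.

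Other parts of protein production moved less. Of 112 tested genes of the mitochondrial ribosome and protein import, 20 rose and 1 fell (median 0.10), among them Mrps25, Mrpl41 and Mrpl36, all proteins of the mitochondrial ribosome, and Tomm40, the channel of the outer membrane. Mrps25 rose from 28.5 ± 1.26 to 40.1 ± 1.20 TPM (SD, n = 3), the largest of these, and overlaps another gene in the annotation. Of 62 translation factors, 12 rose and 0 fell (median 0.07). Eif5a, the factor that carries the polyamine-derived residue hypusine, was at 1609.9, 1655 and 1616 TPM in control and 1936, 1900.2 and 1926 TPM in M2 (0.24, limma adjusted p = 0.0033). Srm, the spermidine synthase that makes the polyamine from which hypusine is formed, rose from 222 ± 5.17 to 277 ± 2.06 TPM. Azin2, Srm and Eif5a were thus all higher, whereas Odc1, the ornithine decarboxylase itself, was at 181, 182 and 175 TPM in control and 161, 178 and 179.6 TPM in M2 (-0.06, adjusted p = 0.530). Of 63 chaperones, 9 rose and 0 fell (median 0.09), among them Fkbp4, a co-chaperone of HSP90, which went from 506 ± 12.7 to 627 ± 5.91 TPM. Of 83 splicing factors, 8 rose and 0 fell (median 0.05), and each of these 8 calls was lost under some alternative. Leaving out 1 library gave 7 to 13 rises for the mitochondrial ribosome and import, 4 to 10 for translation factors, 4 to 8 for chaperones and 0 to 5 for splicing factors. The 13 genes encoded in mitochondrial DNA differed between the M2 libraries, with medians of -0.118, -0.011 and -0.289, and 1 of them, mt-Co1, a subunit of the respiratory chain, fell by 0.20, a call lost in 5 of the 6 fits without 1 library. Of 127 cell-cycle and replication genes, 5 rose (3.94%) and 3 fell (2.36%), beside 4.23% and 3.93% of all genes (median -0.01).

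**Figure D3:**
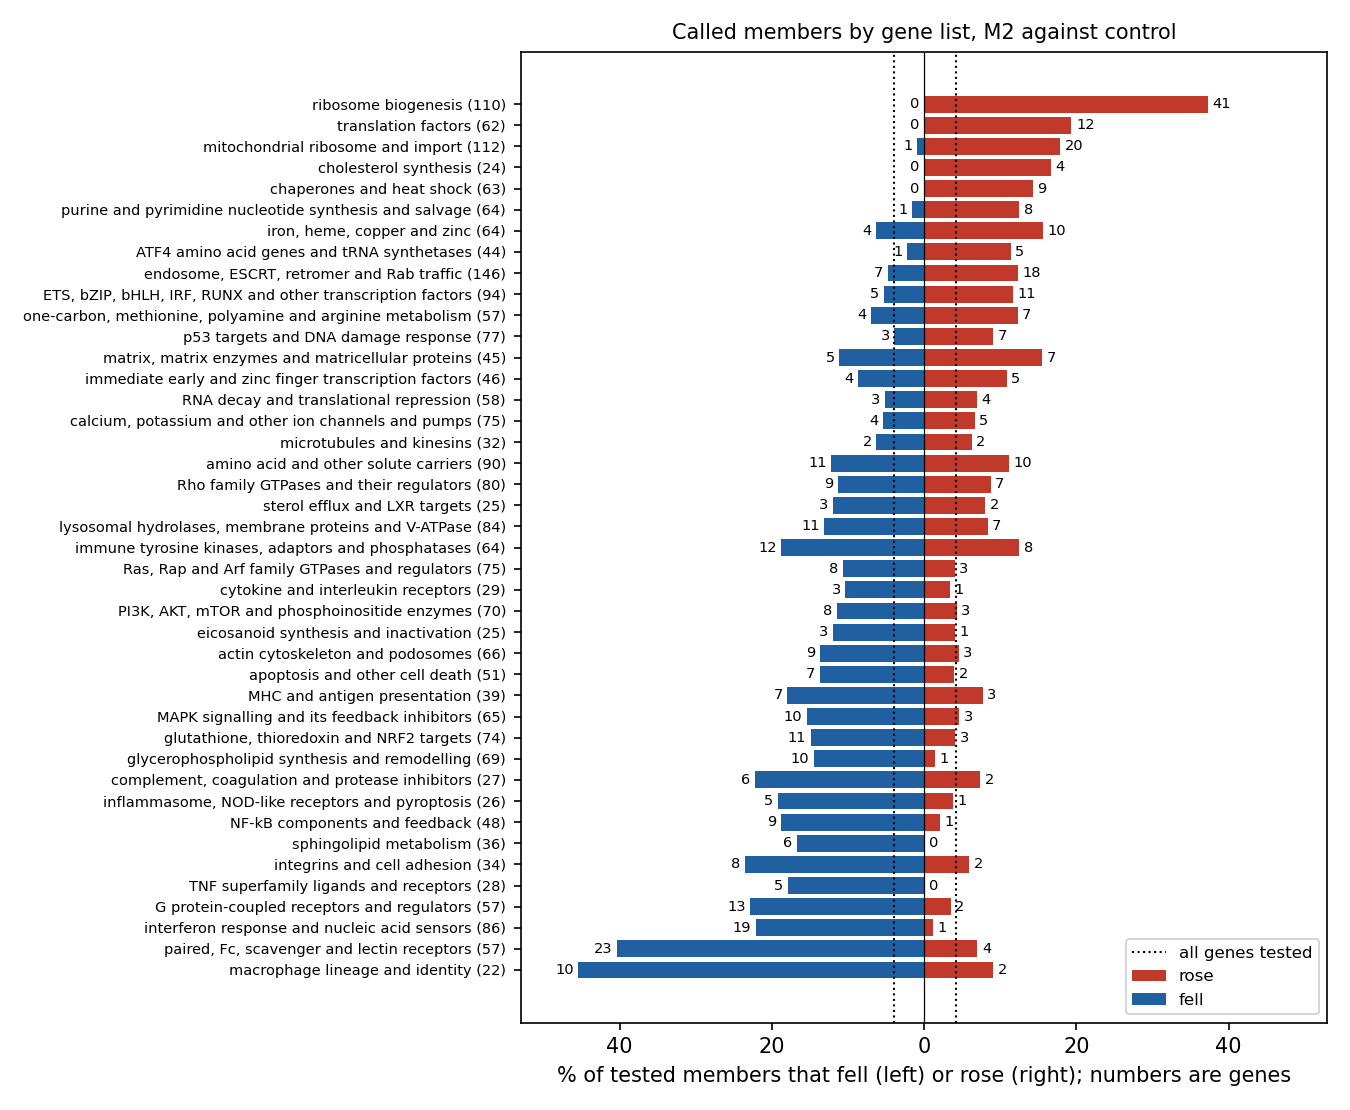
Share of each gene group's tested members that rose (to the right) or fell (to the left) at an adjusted p under 0.05, in percent, for groups with at least 20 tested members and at least 12% of them called. Dotted lines mark the shares over all tested genes (4.23% and 3.93%). Ribosome biogenesis (41 rose, 0 fell) reaches far to the right, and paired, Fc, scavenger and lectin receptors (4 rose, 23 fell) reach far to the left.

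Guanine and cytosine content of the transcripts moved with the calls, and the group counts were therefore also taken with that trend removed. The 9269 protein-coding genes at 5 TPM or more were ordered into 5 equal bins by the GC content of each gene's longest transcript. From the lowest to the highest bin 1.83%, 4.05%, 5.13%, 8.63% and 9.12% rose, and 5.93%, 5.23%, 5.61%, 5.34% and 4.15% fell. The median difference went from -0.07 in the lowest bin to 0.05 in the highest. Across genes, a library's deviations had a Spearman correlation with GC content of -0.298, -0.149 and -0.130 for control replicates 1, 2 and 3. For the M2 replicates it was 0.259, -0.082 and 0.311, so M2 replicate 2 did not share the sign of the other two. What sets this trend was not tested. When each library's GC trend was removed, an alternative added after seeing the data, 548 genes rose and 572 fell, and 957 of the 1102 main calls that could be tested were called again. The share that rose was then 3.67%, 5.50%, 5.02%, 7.12% and 5.56% over the bins. Ribosome biogenesis, whose tested members had a median GC content of 49.1%, still had 41 rises and 0 falls, and the mitochondrial ribosome and import still had 20 rises.

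**Figure D4:**
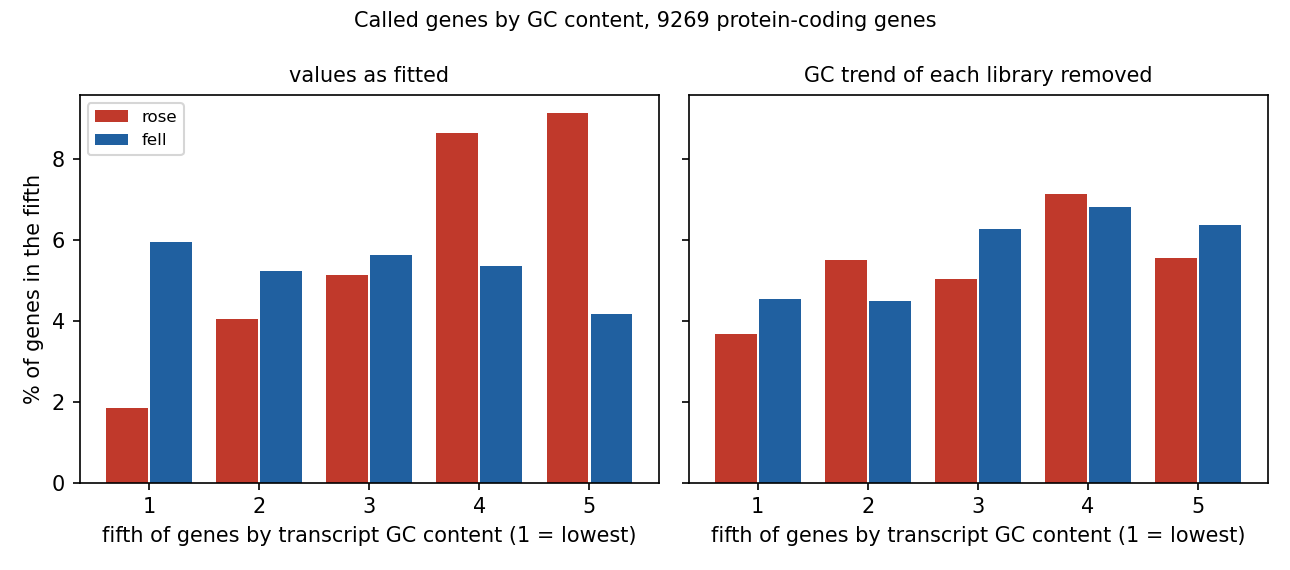
Percent of genes that rose and fell at an adjusted p under 0.05 over 9269 protein-coding genes, as tested and after each library's GC trend was removed. The 5 equal bins follow the GC content of each gene's longest transcript. The share that rose climbs from 1.83% to 9.12% as tested and lies between 3.67% and 7.12% after removal.

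Genes of endocytosis and of iron uptake included clear rises, while the medians of their groups stayed near 0. Of 146 tested genes of endosomes, ESCRT, retromer and Rab traffic, 18 rose (12.3%) and 7 fell (4.79%), with a median of -0.01. Over all genes tested the shares were 4.23% and 3.93%. The rises included parts of the clathrin coat and its cargo adaptors. Ap2m1, the cargo-binding subunit of the AP-2 adaptor, was at 321, 326 and 316 TPM in control and 467, 453 and 479 TPM in M2 (0.54, 95% interval 0.47 to 0.61, limma adjusted p = 0.000264). Dab2, an adaptor that links receptors to clathrin, was at 483, 472 and 476 TPM in control and 649.9, 643 and 617 TPM in M2 (0.42, adjusted p = 0.000665). Neither gene's groups overlapped. Clta, a clathrin light chain, rose by 0.47 and Ap1b1, a subunit of the AP-1 adaptor of the Golgi, by 0.49. Snx6, a sorting nexin of the retromer route, was at 102, 94.0 and 98.4 TPM in control and 150.3, 157 and 160.4 TPM in M2 (0.66, adjusted p = 0.000383). Rab20, a GTPase of phagosome maturation, fell by 0.49. Without 1 library, between 11 and 15 members rose and between 1 and 5 fell.

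Tfrc, the transferrin receptor that brings iron into cells by clathrin-coated pits, was at 659, 674 and 611 TPM in control and 933, 999 and 902 TPM in M2 (0.54, limma adjusted p = 0.00182). The copper transporter Slc31a2 rose from 54.3 ± 2.74 to 77.5 ± 3.47 TPM (SD, n = 3), and Slc39a6, a zinc importer, by 0.29. Slc25a37, the mitochondrial iron importer, fell by 0.40. The iron exporter Slc40a1 had a difference of -0.55, a call lost in all 6 fits without 1 library. These genes stand in a group of 64 genes of iron, heme, copper and zinc, of which 10 rose (15.6%) and 4 fell (6.25%). Without 1 library 4 to 8 rose and 2 to 3 fell, and over all genes tested 4.23% rose and 3.93% fell. After removal of the GC trend 8 members rose and 6 fell, and quantile normalization gave the same counts. Atp6v0a1, a membrane subunit of the proton pump that acidifies lysosomes, was at 119, 115 and 118 TPM in control and 195, 185 and 189.8 TPM in M2 (0.69, adjusted p = 0.00013). Clcn5, a chloride-proton exchanger of endosomes, rose from 17.3 ± 0.298 to 26.7 ± 0.665 TPM. Against these, the lysosomal proteases Ctsc and Ctss fell by 0.45 and 0.29. Of 84 tested lysosomal hydrolases, membrane proteins and proton pump subunits, 7 rose (8.33%) and 11 fell (13.1%), with a median of -0.06. In every fit without 1 library 4 of these rises and 4 of these falls stayed called.

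Surface receptors of myeloid cells fell in larger number than they rose. Of 57 tested paired, Fc, scavenger and lectin receptors, 4 rose and 23 fell (median -0.17), where 3.93% of all genes fell. Clec4n, the receptor dectin-2 for fungal mannans, was at 23.5, 24.2 and 22.5 TPM in control and 8.96, 9.93 and 6.48 TPM in M2 (-1.39, 95% interval -1.71 to -1.06, limma adjusted p = 0.00213). Clec4e, the receptor Mincle for mycobacterial glycolipid, was at 213, 213 and 197 TPM in control and 117, 129 and 123 TPM in M2 (-0.75, adjusted p = 0.000426). Pilra, an inhibitory paired receptor (chromosome 5, 137821952 to 137836281), was at 135, 132 and 141 TPM in control and 63.7, 63.5 and 66.3 TPM in M2 (-1.07, -1.16 to -0.98, adjusted p = 3.69e-05). In these 3 receptors every M2 library was below every control library. Clec5a, a receptor that signals through DAP12, fell from 149 ± 5.80 to 78.2 ± 7.31 TPM (SD, n = 3). Klra2, a receptor of the Ly49 family, was at 21.3, 20.9 and 23.1 TPM in control and 9.43, 11.03 and 9.26 TPM in M2. Mpeg1, which makes pores in engulfed bacteria, was at 806, 803 and 773 TPM in control and 498, 512 and 507 TPM in M2. Fcgrt, the neonatal Fc receptor that recycles IgG, rose by 0.43. Set against the control mean, the median member was at -0.271, -0.190 and -0.104 in M2 replicates 1, 2 and 3. Without 1 library, 16 to 20 members fell, and after removal of the GC trend 24.

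G protein-coupled receptors and their regulators fell more often than they rose, with 13 falls and 2 rises among 57 tested (median -0.08; 9 to 13 falls without 1 library). Cxcr4, the receptor for the chemokine CXCL12, was at 79.7, 92.9 and 79.5 TPM in control and 48.2, 49.1 and 43.5 TPM in M2 (-0.83, limma adjusted p = 0.00154). Ptafr, the receptor for platelet-activating factor, fell from 57.1 ± 1.01 to 38.2 ± 2.86 TPM (SD, n = 3). Pla2g7, the enzyme that breaks down platelet-activating factor, fell from 20.46 ± 1.21 to 11.6 ± 1.41 TPM, and Lpcat2, an enzyme that makes it, fell by 0.56. A receptor, a synthetic and a degrading enzyme of 1 lipid mediator were therefore all lower. Gpr84, a receptor for medium-chain fatty acids, fell from 263 ± 3.77 to 210.5 ± 6.26 TPM. Of 69 genes of glycerophospholipid synthesis and remodelling, 10 fell and 1 rose (median -0.07; 5 to 9 falls without 1 library), among them Gpcpd1, a glycerophosphocholine phosphodiesterase (-0.56), and Agpat4, an acyltransferase of lysophosphatidic acid (-0.39).

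Feedback inhibitors of MAP kinase signalling differed in direction. Dusp6, a phosphatase of the kinase ERK, was at 108, 109 and 106 TPM in control and 62.9, 62.2 and 58.0 TPM in M2 (-0.81, 95% interval -0.90 to -0.71, limma adjusted p = 0.000165). Spry2, an inhibitor of receptor tyrosine kinase signalling, fell from 33.6 ± 0.985 to 24.5 ± 0.610 TPM (SD, n = 3). Dusp4, another MAP kinase phosphatase, was at 479, 468 and 466 TPM in control and rose to 684, 641 and 635 TPM in M2 (0.47). The phosphatases Dusp6 and Dusp4 thus changed in opposite directions. Ier3, an early response gene that prolongs ERK signalling, was at 120.1, 114 and 137 TPM in control and 223, 214 and 233 TPM in M2 (0.85, adjusted p = 0.000987). Of 65 MAPK genes, 10 fell (15.4%, beside 3.93% of all genes) and 3 rose (4.62%, beside 4.23%), with a median of -0.02. Without 1 library 4 to 8 fell. Among the tyrosine kinases of immune receptors, Lyn fell by 0.53 while Fyn, of the same family, rose. The group of 64 immune tyrosine kinases, adaptors and phosphatases had 8 rises and 12 falls.

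NF-kB components, inflammasome genes and interferon-response genes had more falls than rises. Of 48 NF-kB genes, 9 fell and 1 rose (median -0.08, 6 to 7 falls without 1 library). Nfkbie, an inhibitor that holds NF-kB in the cytoplasm, fell from 83.7 ± 5.42 to 55.5 ± 1.54 TPM (SD, n = 3), and Irak2, a kinase of Toll-like receptor signalling, from 48.3 ± 2.57 to 33.5 ± 1.26 TPM. Of 26 inflammasome and NOD-like receptor genes, 5 fell and 1 rose, with 3 to 4 falls without 1 library. Nlrp3, the sensor of an inflammasome, was at 106, 103 and 109.6 TPM in control and 73.8, 72.0 and 73.5 TPM in M2 (-0.54, limma adjusted p = 0.000434). Of 86 genes of the interferon response and nucleic acid sensing, 19 fell and 1 rose (median -0.18). The falls ranged from 6 (without control replicate 3) to 12 when 1 library was left out, and 33 fell by limma-voom. Ifitm3, a membrane protein that restricts virus entry, was at 3234, 3380.4 and 3279 TPM in control and 2298, 2362 and 2419 TPM in M2 (-0.48, adjusted p = 0.000571).

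Genes of oxidant production and of antioxidant defence were both among the falls. Of 74 genes of glutathione, thioredoxin and NRF2 targets, which also hold the NADPH oxidase, 11 fell and 3 rose (median -0.04, 7 to 10 falls without 1 library). Next to Cybb, Ncf1, a cytosolic subunit of the same oxidase, fell by 0.32. Prdx1, a peroxidase of the cytosol, was at 971, 982 and 943 TPM in control and 749, 781 and 790.2 TPM in M2 (-0.32, limma adjusted p = 0.00226). Nfe2l2, which encodes the transcription factor NRF2, was at 211, 205 and 201 TPM in control and 156, 168 and 163 TPM in M2 (-0.34, adjusted p = 0.00309). Prdx1 and Nfe2l2 had no overlap between groups. Txnip, an inhibitor of thioredoxin, fell by 0.35, and Glrx, a glutaredoxin, rose by 0.38.

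Adhesion and guidance genes also had more falls than rises. Itgal and Itgb2, the chains of the integrin LFA-1, went from 24.9 ± 2.98 to 15.1 ± 0.180 TPM and from 497 ± 4.62 to 391 ± 20.6 TPM (SD, n = 3). Of 34 integrin and adhesion genes, 8 fell and 2 rose, with 3 to 6 falls without 1 library. Of 18 genes of semaphorins, plexins and guidance, 5 fell and 1 rose (3 to 4 falls without 1 library). Plxna1, a semaphorin receptor, was at 277, 270.4 and 286 TPM in control and 208, 192 and 199.6 TPM in M2 (-0.48, limma adjusted p = 0.00106). Nrp1, a co-receptor for semaphorins and VEGF, fell from 90.4 ± 4.66 to 64.3 ± 0.191 TPM, and Sema4d, a semaphorin, from 112 ± 4.07 to 85.2 ± 1.69 TPM. Plxnd1, another plexin, rose by 0.35, so the plexins were not uniform. Pdgfb, a growth factor for mesenchymal cells, was at 292, 283 and 287 TPM in control and 214, 212 and 214 TPM in M2 (-0.43, adjusted p = 0.00037). Tnfsf9, the ligand of the costimulatory receptor 4-1BB, was at 136, 138 and 140.0 TPM in control and 96.7, 98.3 and 94.9 TPM in M2 (-0.51, adjusted p = 0.000292). St3gal5, the sialyltransferase that makes the ganglioside GM3, fell from 374 ± 7.27 to 294 ± 0.492 TPM.

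**Figure D5:**
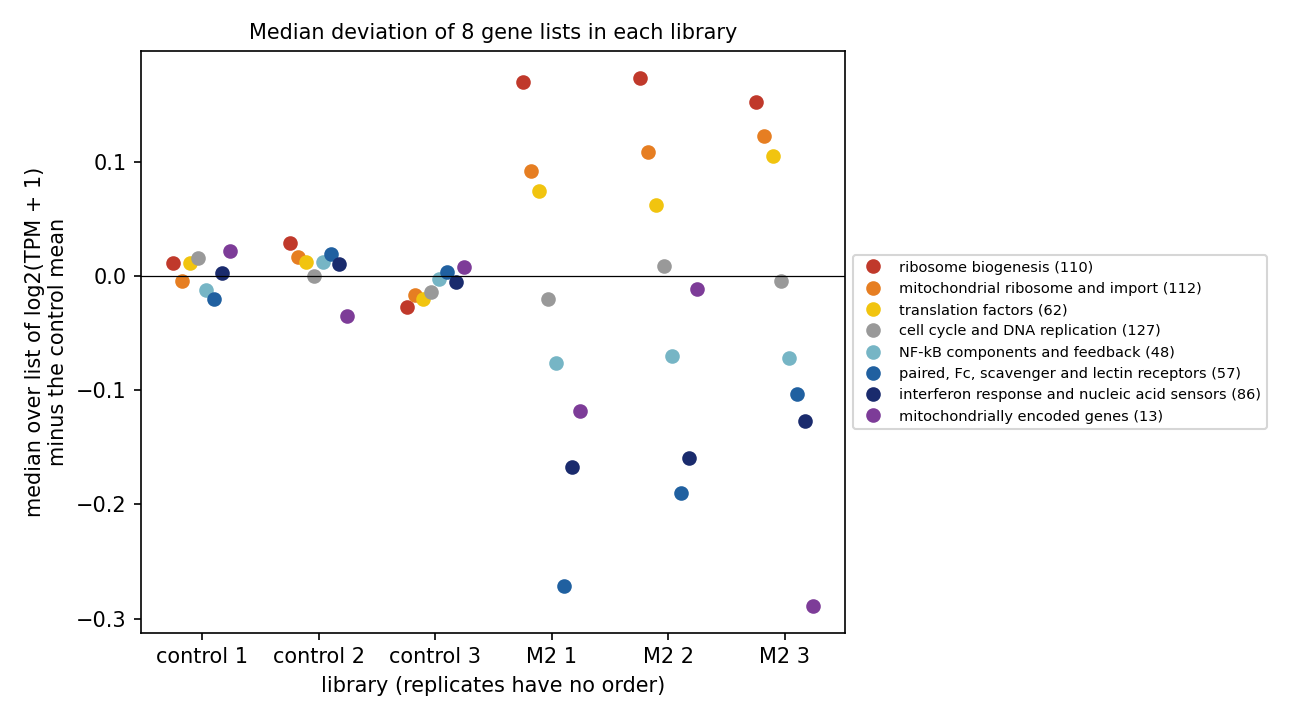
Median deviation of each gene group's tested members from the control mean (log2(TPM + 1)) in each of the 3 control and 3 M2 libraries. Ribosome biogenesis lies at 0.170, 0.174 and 0.153 in the M2 libraries, and paired, Fc, scavenger and lectin receptors at -0.271, -0.190 and -0.104.

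Of 868 tested genes with a transcription factor family in the deposited table, 28 rose (3.23%, against 4.23% of all genes) and 26 fell (3.00%, against 3.93%). In the list of ETS, bZIP, bHLH, IRF, RUNX and other factors 11 of 94 rose (11.7%) and 5 fell (5.32%). Among immediate early and zinc finger factors 5 of 46 rose (10.9%) and 4 fell (8.70%). Nfil3, a repressor of the bZIP family, rose from 59.7 ± 1.80 to 88.9 ± 9.35 TPM (SD, n = 3), and Atf3, a stress-responsive bZIP factor, by 0.44. Ets2 and Bhlhe41 fell by 0.47 and 0.43. These are transcript levels, and the activity of the factors was not measured.

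Some of the changed genes lie beside each other in the genome. Among 8146 pairs of consecutive tested protein-coding genes less than 100 kb apart, 94 had both members called (1.15%). Of the single protein-coding genes 9.62% were called, and whether neighbours were called together more often than other genes was not tested. Of these pairs 66 changed in the same direction and 28 in opposite directions. Runs of called neighbours with 1 direction numbered 57 and held 123 of the 1040 called protein-coding genes, and in 6 runs at least 2 members changed by 0.7 or more. This description was added after the values were seen. Gm15904, an antisense transcript over Azin2, went from 0.697 ± 0.489 to 3.56 ± 1.14 TPM (SD, n = 3), a call lost in 4 of the 6 fits without 1 library. The library kit named in the labels does not mark strand, so reads of Azin2 and Gm15904 cannot be told apart where they overlap.

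The runs described here held receptors, chemokines and an interferon-inducible GTPase. Mgl2 and Clec10a, paralogous lectins for galactose-type sugars that both stand on the classical list, lie within 40.5 kb of chromosome 11 (70130329 to 70170834) and rose by 2.92 and 1.56. Ccl2, Ccl7 and Ccl12, chemokines that attract monocytes, lie within 67.8 kb of the same chromosome (82035571 to 82103400). Ccl7 was at 119, 109 and 113 TPM in control and 525, 566 and 413 TPM in M2 (2.12, limma adjusted p = 0.000181), while Ccl2 and Ccl12 rose by 0.59 and 0.73. Ccl7 thus changed more than the abundant Ccl2. All 3 stand on the list of classical M1 markers, yet were higher in M2. On chromosome 6 Clec4n, Clec4d and Clec4e, lectin receptors of fungi and mycobacteria, lie within 60 kb (123229843 to 123289870) and fell by 1.39, 0.75 and 0.75. Clec4a1 and Clec4a3, of the same chromosome and family, had differences of 0.29 and 0.43, each a call lost in 5 of the 6 fits without 1 library.

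On chromosome 5 Pilra, Pilrb1 and Pilrb2, the inhibitory and activating members of a paired receptor family, lie within 49.9 kb (137821952 to 137871815) and had differences of -1.07, -0.99 and -0.95. Pilrb1 was at 11.8, 11.1 and 10.5 TPM in control and 4.98, 5.24 and 5.02 TPM in M2. Pilrb2 was at 7.69, 10.0 and 11.7 TPM in control and 5.08, 5.24 and 3.42 TPM in M2, and its call (limma adjusted p = 0.0282) was lost in 4 of the 6 fits without 1 library, with adjusted p up to 0.0902. Pilrb1 and Pilrb2 are close copies, so the split of reads between them is uncertain. A further run, 9930111J21Rik2 and Ifi47 on chromosome 11 (49015874 to 49096974), fell by 0.79 and 0.75. Ifi47, an interferon-inducible GTPase, went from 10.5 ± 0.851 to 5.84 ± 0.519 TPM (SD, n = 3).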

How the data were processed

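Per the submitters' processing notes, HISAT2 2.0.5 and StringTie 1.3.3b were used with mm10/GRCm38, and the authors deposited TPM per gene for 9 poly-A libraries. Whole reads (tolerance 0.1 read) were recovered for 98.8% to 99.0% of low values in the 6 libraries compared. Genes reaching 1 TPM in 3 or more of those libraries were fitted on log2(TPM + 1) with limma 3.58.1 (R 4.3.3; mean-variance trend, 4 residual degrees of freedom, two-sided tests), which was tested on simulated data. The 95% interval reached to either side of the difference by a median of 0.671 under 2 TPM and 0.0939 at 100 TPM or more. Genes were named by a rule: the 25 largest changes each way at 5 TPM or more, the 10 largest TPM changes each way and up to 4 per list of 79. Other genes in the text, among them Tlr8, Clta, Ap1b1, Heatr1, Tomm40, Fcgrt and Glrx, were named outside this rule. Some genes that met this rule are not reported here. Members and lists were chosen with earlier results of these data known. The neighbour runs, promoter windows and GC-trend removal were added after seeing the data. Alternatives were other pseudocounts, filters, scalings, a replicate block, limma-voom on recovered reads and each library left out. Tables and figures used pandas 2.3.3, numpy 2.4.6 and matplotlib 3.10.9 under Python 3.11.15.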

Additional observations from a re-analysis of the deposited data

How the results depend on the processing

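The main fit by limma called 575 rises and 535 falls among 13601 genes. With no filter on low values 357 and 342 were called, and without the mean-variance trend 233 and 309. Limma-voom on recovered reads called 972 and 1030, and a fit with all 9 libraries 996 and 835. The Q11 libraries stayed out of the main fit because an earlier analysis found reads shared between some of them. Shared reads would lower the estimated spread. Leaving out 1 library gave 225 to 402 rises, 240 to 408 falls and 53 to 66 differences of at least 1, against 66. A filter of 5 TPM gave 41 such differences. The labels number the libraries alike in both groups. Deviations from the group means had correlations of 0.105, -0.092 and 0.041 between same-numbered libraries over 10105 genes. Between the other pairs they ranged from -0.177 to 0.131. With 3 libraries per group these values cannot decide whether the numbers pair the libraries. A fit with a replicate block called 257 rises and 271 falls. A pseudocount of 0.1, quantile normalization and median centring kept both counts within 1.5 times. Stat6, not called (-0.01), ranged from -0.0364 to 0.0115 when 1 library was left out and was above 0 without control replicate 1, M2 replicate 1 or M2 replicate 2. The cause of these shifts was not tested. The fits without 1 library also held fewer samples. Low genes were rarely called: under 2 TPM, 11 of 1644 genes rose and 4 fell. In bulk RNA, fewer cells of a state and less RNA per cell cannot be told apart.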
